A study of Mus musculus with 4 samples.

Results

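Voltage-gated sodium channel genes were followed in nuclei of the mouse superior colliculus, a layered part of the midbrain that takes in visual and other sensory signals. The group held 8 of the 31053 genes of the count matrix, taken by symbol. There were 5 genes for pore-forming alpha subunits (Scn1a, Scn2a, Scn3a, Scn8a and Scn9a) and 3 for auxiliary beta subunits (Scn2b, Scn3b and Scn4b). All 8 were found, each as a single row.

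Alpha subunits form the sodium-selective pore that opens on depolarisation and carries the upstroke of the action potential. Scn1a encodes Nav1.1, Scn2a Nav1.2, Scn3a Nav1.3, Scn8a Nav1.6 and Scn9a Nav1.7. Beta subunits are single-pass membrane proteins that alter channel gating and act in cell adhesion, and Scn4b is associated with resurgent sodium current. In rodent brain Nav1.3 is known as an early channel, and Nav1.6 is known to follow Nav1.2 at maturing axon initial segments and nodes of Ranvier.

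The tissue was microdissected from C57BL/6J mice at embryonic day 19 (E19) and postnatal days 4, 8 and 21 (P4, P8 and P21), with no genetic or drug treatment named in the labels. The titles give the embryonic age as E19, while a protocol text also abbreviates it as E10. Each age was 1 library of nuclei pooled from more than 1 animal, and how many animals of which sex were pooled is not stated. The 4 libraries held 2249 to 2585 nuclei in the authors' table, 9724 in all, of which 4093 were excitatory and 3459 inhibitory neurons by the authors' classes. Stages were therefore compared without replicates: values below are UMIs (unique molecular identifiers, 1 per captured transcript) per 1000000 UMIs of a class in a library (CPM), and each interval is a 95% interval for counting error only.

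Library totals were 19277512 to 31325079 UMIs. Median UMIs per nucleus increased from 8051.5 to 19601 in excitatory and from 6075 to 14009.5 in inhibitory neurons between E19 and P21. The E19 library stood apart in a UMI of Xist, the female X-inactivation transcript, which was present in 0.967% of its nuclei against 40.7% to 68.1% in the others. The part of this difference in the stage values was not tested. Summed neuron markers were at 12054 to 20338 CPM in the neuron classes, at 1228 to 1416 in astrocytes and at 884.5 to 4449 in the other classes, highest in the one labelled epithelial. That class held its own markers at only 0 to 111 CPM. Vascular leptomeningeal cells, used below for comparison, held astrocyte markers at 1470.3 to 3187 CPM beside their own at 1282 to 3364. The source of these astrocyte marker UMIs was not tested, which limits the use of that class as a comparison. Markers of myelinating oligodendrocytes summed to 53.6 to 268 CPM in excitatory and 58.4 to 337 CPM in inhibitory neurons, highest at P21, and their part in the stage values was not tested. A total of 9 cell barcodes occurred in more than 1 library.

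Scn1a and Scn8a were higher at each later stage in excitatory neurons, Scn2a stayed near its E19 level, and Scn3a and Scn9a were lower at P21. The 4 stages in order gave 212, 280.4, 374 and 520.5 CPM of Scn1a in excitatory neurons. In inhibitory neurons it was at 181, 253, 281 and 485 CPM. The P21 level was 2.46-fold the E19 level in excitatory neurons (2.35 to 2.57) and 2.68-fold in inhibitory neurons (2.51 to 2.86). Scn1a thus had its highest level at P21 in both classes, with intervals that did not overlap those of any earlier stage.

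Scn8a followed the same order of stages in excitatory neurons, at 245, 310.2, 339.6 and 415 CPM, and was at 218, 303, 297 and 391 CPM in inhibitory neurons. Its P21 level was 1.69-fold the E19 level in excitatory neurons (1.62 to 1.77) and 1.79-fold in inhibitory neurons (1.68 to 1.91). In inhibitory neurons P4 and P8 did not differ beyond counting error, with a ratio of 0.98 (0.926 to 1.04).

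Scn2a varied least. It was at 365, 404, 379 and 396 CPM in excitatory neurons and at 320.4, 379, 319 and 354 CPM in inhibitory neurons. From E19 to P21 its level differed 1.09-fold in the former (1.04 to 1.13) and 1.104-fold in the latter (1.05 to 1.17). In both classes the highest value was at P4.

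Scn3a, the early channel, differed between the classes in its timing. Excitatory neurons held 394, 399, 415 and 283 CPM, so that only the P21 library was low. Inhibitory neurons held 415, 391, 314 and 165 CPM, with a lower value at every step. The E19 level was 1.39-fold the P21 level in excitatory neurons (1.33 to 1.45) and 2.52-fold in inhibitory neurons (2.37 to 2.68). On the scale of mean UMIs per nucleus without scaling to the total, which was added after the depth was seen, the log2 ratio of Scn3a in excitatory neurons turned from -0.47 to 0.82. Mean UMIs per nucleus were themselves higher at P21, by 1.31 on the log2 scale in excitatory and 1.19 in inhibitory neurons.

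Scn9a peaked at P4 and was lowest at P21 in the sums of both classes. Its levels were 230.2, 272, 199 and 54.8 CPM in excitatory neurons and 158, 204, 135 and 34.15 CPM in inhibitory neurons. The E19 level was 4.2-fold the P21 level in excitatory neurons (3.88 to 4.55) and 4.63-fold in inhibitory neurons (4.11 to 5.22). Most of the difference lay between P8 and P21, where the earlier level was 3.63-fold (3.35 to 3.94) and 3.94-fold (3.52 to 4.42) the later one. The peak at P4 was seen in many subtypes but not in all: EN8 was at 369 CPM at E19 and 270 at P4. Subtype EN7, at 314 CPM at P4, had 191 nuclei there and 1 at P8, and its part in the peak was not tested.

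**Figure D1:**
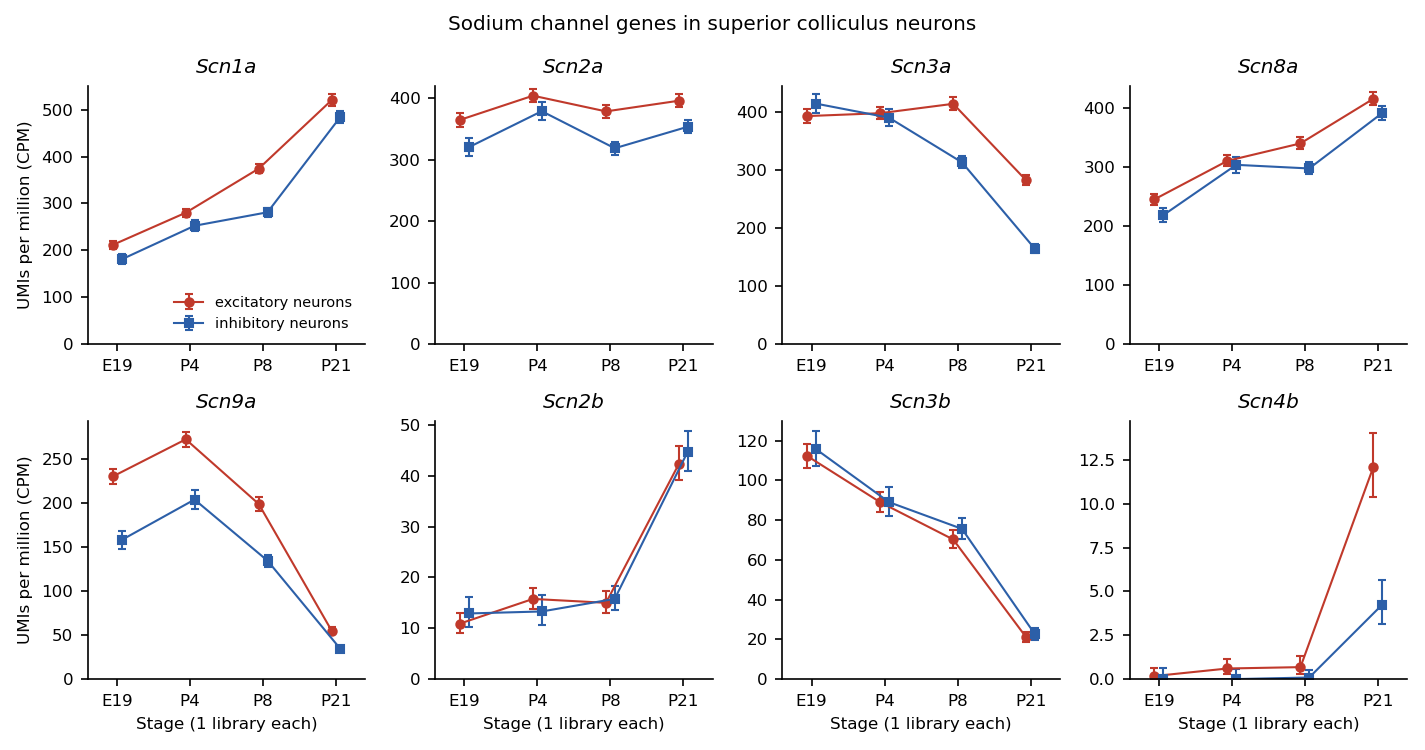
Level of each sodium channel gene (CPM, linear axes from 0) by stage in excitatory neurons (red circles) and inhibitory neurons (blue squares); bars are 95% exact Poisson intervals for counting error, with 1 library per stage. Scn1a reaches 520.5 and 485 CPM at P21, while Scn9a is at 54.8 and 34.15 CPM there.

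The beta subunit genes exchanged places between P8 and P21. Scn3b, whose subunit binds alpha subunits without a disulphide bond, was at 112, 89.02, 70.3 and 21.02 CPM in excitatory neurons and at 116, 89.1, 75.6 and 22.6 CPM in inhibitory neurons. Its E19 level was 5.34-fold the P21 level in excitatory neurons (4.71 to 6.07) and 5.13-fold in inhibitory neurons (4.44 to 5.95). It was lower at each later stage in both classes.

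Scn2b, whose subunit is disulphide-linked to alpha subunits, stayed between 10.9 and 15.8 CPM from E19 to P8 in both classes. Excitatory neurons of P21 held 42.4 CPM, 3.88-fold the E19 level (3.2 to 4.74), and inhibitory neurons 44.8 CPM, 3.47-fold (2.72 to 4.46). The log2 ratio of Scn2b to Scn3b UMIs was -3.36 at E19 and 1.01 at P21 in excitatory neurons, and -3.16 and 0.99 in inhibitory neurons. The sign changed between P8 and P21 in both.

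Scn4b was nearly absent before P21. Excitatory neurons held 2, 9, 9 and 177 UMIs of it at the 4 stages, or 0.173, 0.604, 0.682 and 12.1 CPM. The P21 level was 17.8-fold the P8 level there, with a wide interval (9.15 to 39.5). Inhibitory neurons held 0, 0, 1 and 48 UMIs. Their 4.25 CPM at P21 was 8.44-fold the limit at E19, where the class had no UMI and 3 counts were taken as the limit. That ratio leaves out the counting error of the P21 value. A UMI of Scn4b was found in 18.3% of excitatory and 5.27% of inhibitory nuclei at P21, against 2.88% of vascular leptomeningeal nuclei of the same library, at median depths of 19601, 14009.5 and 6228 UMIs. With every nucleus thinned to 2300 UMIs these shares were 2.79%, 0.676% and 1.44%, and the exact (Clopper-Pearson) interval of the leptomeningeal share (0.175 to 5.1) overlapped those of the excitatory (1.69 to 4.32) and inhibitory shares (0.22 to 1.57). The leptomeningeal level at P21 was 4.36 CPM (1.19 to 11.2), near that of inhibitory neurons.

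A 2-fold difference was taken as a log2 ratio of at least 1 in size after adding 5 CPM to both values. By this measure, 3 of the 8 genes were past 2-fold higher at P21 than at E19 in excitatory neurons (Scn1a, Scn2b and Scn4b) and 2 lower (Scn9a and Scn3b). Among the 7650 genes that reached 20 CPM at either of those ages, 5.35% were higher and 10.7% lower by that much. In inhibitory neurons 2 genes were higher (Scn1a and Scn2b) and 3 lower (Scn3a, Scn9a and Scn3b), beside 5.83% and 11.3% of 7807 genes. Scn4b did not reach 20 CPM and is not among those genes. Without scaling to the total, 5 members were past 2-fold higher and 0 lower in excitatory neurons, and 5 higher and 1 lower in inhibitory neurons. The counts of lower members rest on a small value added before the ratio. Per nucleus with nothing added, Scn3b in excitatory neurons was past 2-fold lower, from 1295 UMIs in 1338 nuclei to 307 in 682. So was Scn9a in inhibitory neurons, from 942 UMIs in 893 nuclei to 386 in 740.

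No member was past 2-fold between E19 and P4 or between P4 and P8 in either class, steps at which few genes were. In excitatory neurons 0.472% of genes were higher and 0.701% lower from E19 to P4, and 0.361% and 0.832% from P4 to P8. In inhibitory neurons these shares were 0.436% and 0.582%, then 0.136% and 0.382%. Between P8 and P21, Scn2b and Scn4b were past 2-fold higher in excitatory neurons, where 2.15% of genes were, and Scn9a and Scn3b lower, where 3.2% were. In inhibitory neurons Scn2b was past it upward (2.62% of genes) and Scn9a and Scn3b downward (3.28%).

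Read as shares of the alpha subunit UMIs, which favour long genes because intronic reads were counted, Scn1a went from 14.6% at E19 to 31.2% at P21 in excitatory neurons. Over the same stages Scn3a went from 27.2% to 16.9% and Scn9a from 15.9% to 3.28%. The summed level of the alpha genes moved less, at 1446, 1666, 1706 and 1669 CPM. Among the beta genes, Scn3b made up 91.005% of UMIs at E19 and 27.8% at P21, while Scn2b went from 8.85% to 56.1%.

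**Figure D2:**
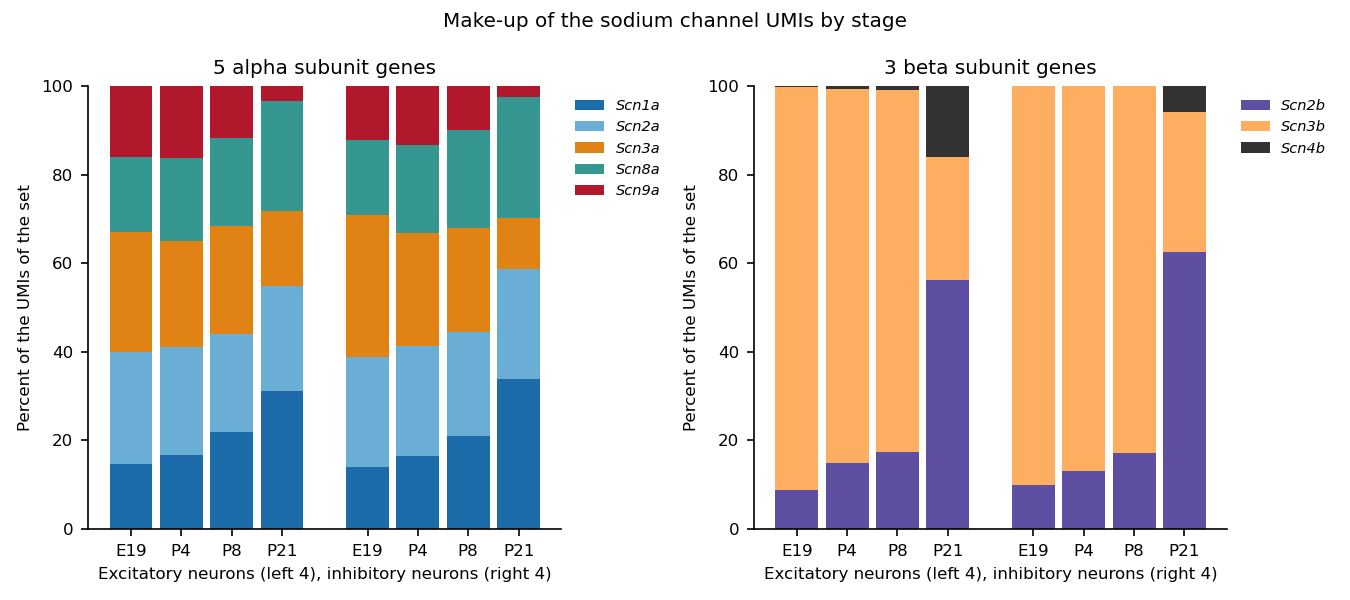
Percent of the UMIs of the 5 alpha subunit genes (left) and of the 3 beta subunit genes (right) taken by each gene at each stage, in excitatory and inhibitory neurons. In excitatory neurons Scn1a takes 14.6% of alpha UMIs at E19 and 31.2% at P21, and Scn2b takes 8.85% and 56.1% of beta UMIs.

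The pair Scn8a and Scn2a moved in 1 direction through the stages. The log2 ratio of Scn8a to Scn2a UMIs in excitatory neurons was -0.57, -0.38, -0.16 and, at P21, 0.07 (0.02 to 0.12). In inhibitory neurons it was -0.55, -0.32, -0.10 and 0.14 (0.08 to 0.21). The sign at P21 rests on the scale: per kilobase of gene span, Scn2a was still above Scn8a there, at 2.7 against 2.36 CPM per kb in excitatory and 2.41 against 2.22 in inhibitory neurons, with intervals that did not overlap. For Scn1a to Scn3a the log2 ratio went from -0.89 to 0.88 in excitatory and from -1.2 to 1.56 in inhibitory neurons.

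Levels of different genes were compared as CPM per kilobase of annotated gene span (GENCODE M21, GRCm38). This scale takes UMIs to rise in proportion to span, which was not tested, so the place of the short beta genes rests on it. Before the division, excitatory neurons held 1295 UMIs of Scn3b and 4540 of Scn3a at E19. At P21 they held 619 of Scn2b and 7602 of Scn1a. The spans were 12.289 kb for Scn2b, 15.758 kb for Scn4b, 22.402 kb for Scn3b and 110.51 to 176.081 kb for the alpha genes. At E19 Scn3b was highest in both classes, at 5.01 CPM per kb in excitatory and 5.17 in inhibitory neurons, followed by Scn3a (3.56 and 3.76) and Scn2a (2.49 and 2.18). At P21 Scn2b was highest (3.45 and 3.64 CPM per kb), followed by Scn1a (3.06 and 2.85). In excitatory neurons the next were Scn2a (2.7) and Scn3a (2.56), whose intervals overlapped each other but not that of Scn8a (2.36). Scn9a was the lowest at P21, at 0.354 CPM per kb in excitatory and 0.2205 in inhibitory neurons, the latter not separated from Scn4b (0.269).

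Scn9a was higher in excitatory than in inhibitory neurons over the 4 libraries. Scn1a and Scn2a were also called higher, but not without the inhibitory subtype IN3, nor without the E19 or the P8 library. The test was edgeR's quasi-likelihood test on class sums with library as a block, and classes had been named by the authors from the same counts. Scn9a was 1.51-fold higher in excitatory neurons (log2 0.59, SE 0.056, Benjamini-Hochberg adjusted p = 0.00035, higher in 4 of 4 libraries). Scn1a was 1.21-fold higher (log2 0.27, SE 0.062, adjusted p = 0.0202) and Scn2a 1.16-fold (log2 0.22, SE 0.051, adjusted p = 0.0215), each in 4 of 4 libraries. So 3 of the 7 members tested were called higher in excitatory neurons, beside 9.48% of 14799 genes, and 0 higher in inhibitory neurons, beside 7.72%. At an unadjusted p of 0.05 the members numbered 5 and 0, and DESeq2 called 4 and 0.

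Without IN3, left out after its low levels were seen, 1 member was called, Scn9a (log2 0.47, adjusted p = 0.000389), and the adjusted p of Scn1a was 0.0686 and of Scn2a 0.0507. At P21 the other inhibitory neurons were at 535 CPM of Scn1a (519.9 to 549.8), beside the 520.5 CPM of all excitatory neurons. That comparison leaves out the lowest subtype of the inhibitory class only. Excitatory neurons without EN12, their lowest subtype for Scn1a at P21, were at 533.7 CPM (521.4 to 546.3). The intervals overlapped, so no difference between the classes at P21 was resolved once both subtypes were left out. Without the E19 library the adjusted p of Scn1a was 0.0659 and of Scn2a 0.0678, and without P8 they were 0.0932 and 0.104. Without P4 the adjusted p of Scn1a was 0.0552. Without the library block none of the 3 calls held, with adjusted p of 0.999 for Scn1a, 0.724 for Scn2a and 0.999 for Scn9a.

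For the other members the main test called no difference between the classes. Scn8a was 1.12-fold higher in excitatory neurons (adjusted p = 0.0619) and was higher in 4 of 4 libraries. Scn3a was 1.26-fold higher (adjusted p = 0.125), higher in 3 of 4 libraries and lower in the E19 library. The log2 differences of Scn2b (0.009, interval -0.19 to 0.21) and Scn3b (-0.02, -0.12 to 0.09) were small against their errors. Scn4b was removed by the filter on low counts, so the main test did not include it. It was at 0.173, 0.604, 0.682 and 12.1 CPM in excitatory and 0, 0, 0.0902 and 4.25 CPM in inhibitory neurons. The fit without that filter and DESeq2 did include it, and both called it higher in excitatory neurons.

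The direction with age was shared by most of the 23 neuron subtypes that had at least 20 nuclei at both E19 and P21. Scn1a was past 2-fold higher at P21 in 23 of 23, with log2 ratios from 1.03 in EN6 to 2.56 in IN9, and Scn3b past 2-fold lower in 23 of 23 (-3.01 in IN12 to -1.26 in EN13). Scn8a was higher in 23 of 23, past 2-fold in 7, and Scn2b higher in 23 of 23, past 2-fold in 20. The counting interval of the Scn2b ratio lay above 1 in 20 of the 23. UMIs of Scn2b were few at E19, with 0 in EN12, EN13 and IN11. Scn9a was lower in 22 of 23 and past 2-fold in 19, the exception being IN10, with a log2 ratio of 0.15 on 20 UMIs at P21. Subtypes of 1 library share that library, so these counts are not replicates of the stage difference.

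Scn3a set subtype EN12 apart from the other neurons. EN12 held 779, 748, 834 and 1062 CPM at the 4 stages in order, while the other excitatory neurons together were at 387, 386, 381 and 211 CPM. EN12 was the highest of all neuron subtypes at each stage, although at E19 its interval overlapped that of IN11. At P21 the next was EN6 at 346 CPM, and the interval of EN12 (1005 to 1121) lay above that of EN6 (311 to 383). It was also the only subtype of the 23 with a higher Scn3a level at P21 than at E19, with a log2 ratio of 0.44 against -1.68 to -0.22 in the others.

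EN12 was small, with 22, 36, 59 and 41 nuclei at the 4 stages. At P21 it made up 6.01% of excitatory nuclei and held 31.5% of their Scn3a UMIs, 1301 of 4129, of which no nucleus gave more than 6.07%. Its nuclei were also the deeper ones, with a median of 27353 UMIs against 19404. After thinning all nuclei to 2300 UMIs, 95.1% of EN12 nuclei had an Scn3a UMI at P21, against 40.2% of the other excitatory nuclei. Without EN12 the log2 ratio of Scn3a from E19 to P21 in excitatory neurons was -0.86 in place of -0.47. This alternative was chosen after the level of EN12 was seen.

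The same subtype kept more Scn9a. At P21 EN12 was at 149 CPM (129 to 173), against 73.8 CPM in EN8, the next subtype, and 46.1 CPM in the other excitatory neurons together. Its Scn1a level of 376 CPM at P21 was the lowest of the 11 excitatory subtypes, which ranged to 598 CPM. Scn2a was highest in EN12 at P4, P8 and P21, at 555, 488 and 482 CPM, although at each of these stages its interval overlapped that of the next subtype (EN2 at P21, 428 CPM).

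Subtype IN3 lay at the other end. Its Scn1a level was the lowest of all neuron subtypes at each stage, at 72.8, 114, 129 and 252 CPM, against 187, 259.8, 310.3 and 535 CPM in the other inhibitory neurons together. Scn2a was also lowest in IN3 at each stage (159 to 241 CPM), and so was Scn9a (8.53 to 27.2 CPM). The ratio of stages in IN3 still had the common sign, Scn1a being higher and Scn3a lower at P21. Of the inhibitory nuclei, the share of IN3 was 7.5%, 8.27%, 19.8% and 17.03% in stage order. For Scn3b the order was different, since IN3 had the highest value at P21, at 38.1 CPM (30.04 to 47.7), with EN12 next at 32.7 CPM and inside that interval.

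Neighbours in the order of subtypes were seldom separated. At P21 1 neighbouring pair of 23 subtypes had non-overlapping intervals for Scn1a (EN12 above IN3), 1 for Scn3a (EN12 above EN6), 1 for Scn9a (EN12 above EN8) and 0 for Scn2a, Scn8a and the 3 beta genes. Beyond those gaps, the order of neighbouring subtypes was not resolved at this depth.

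**Figure D3:**
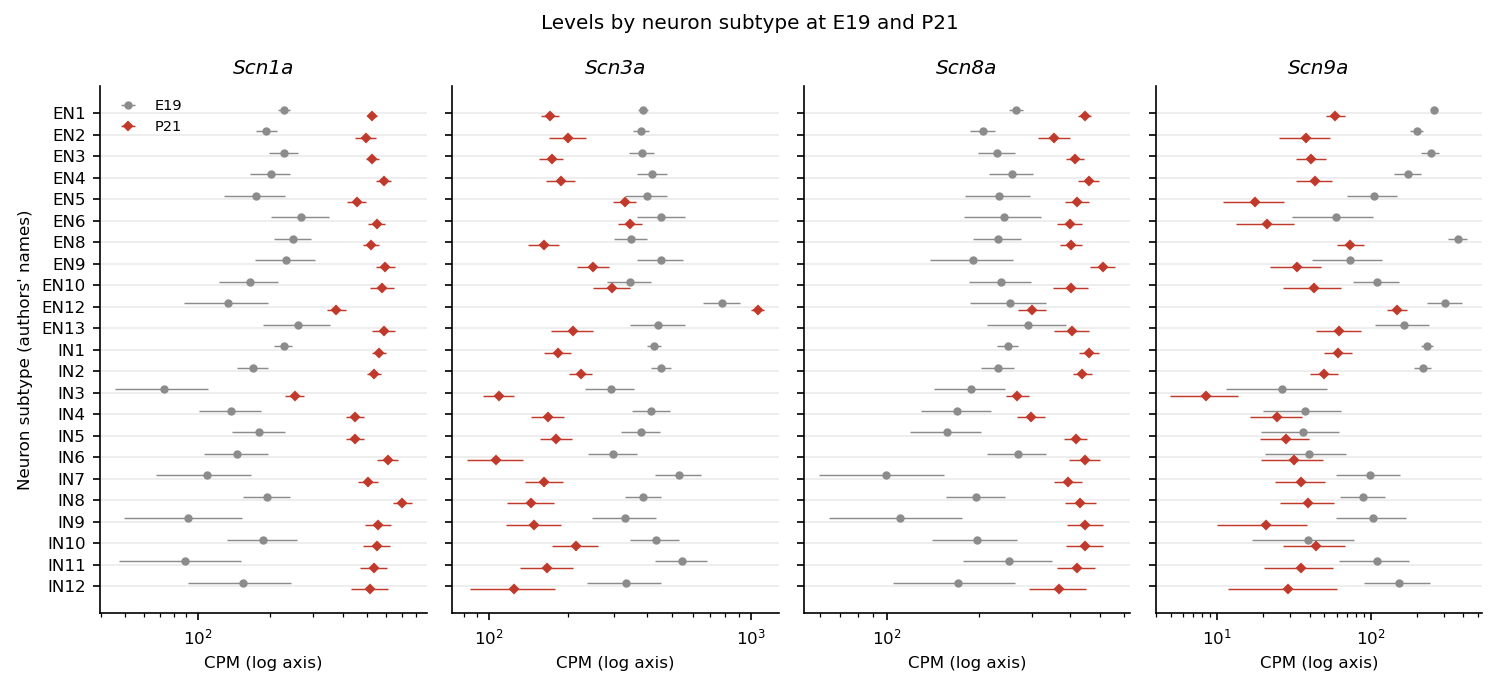
Levels of Scn1a, Scn3a, Scn8a and Scn9a (CPM, log axes) in the 23 neuron subtypes with at least 20 nuclei at both E19 (grey circles) and P21 (red diamonds); bars are 95% counting intervals. EN12 is the only subtype whose Scn3a level is higher at P21 (1062 CPM) than at E19 (779 CPM), and IN3 is lowest for Scn1a at both stages.

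The alpha genes other than Scn8a lie together on chromosome 2. In GENCODE M21 on GRCm38, Scn3a spans chr2:65457118-65567627 (minus strand), Scn2a chr2:65620771-65767447 (plus), Scn1a chr2:66270778-66440840 (minus) and Scn9a chr2:66480080-66634962 (minus). Scn8a is at chr15:100869858-101045938 (plus). The beta genes are on chromosome 9, Scn3b at chr9:40269217-40291618, Scn2b at chr9:45117782-45130070 and Scn4b at chr9:45138395-45154152, all on the plus strand. Scn2b overlaps Gm10684, a long non-coding gene on the opposite strand. No source used here says if reads were assigned by strand, so UMIs of Scn2b and Gm10684 cannot be told apart with certainty.

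Between Scn1a and Scn9a starts Gm13629, a non-coding gene annotated as antisense, at chr2:66440880-66546026 on the plus strand. It runs from 40 bases beyond the start of Scn1a, on the other strand, into the 3′ part of Scn9a, which it overlaps. Of 15380 genes on the minus strand, 132 (0.858%) had the start of a plus-strand gene this near in that arrangement. The stretch upstream of the Scn1a start is shown because it lies next to that start and holds the start of Gm13629. It is chr2:66440841-66441087 of GRCm38.p6 on the minus strand, from RefSeq, with the 39 bases between the annotated starts in capitals.
Scn1a and Gm13629 start region: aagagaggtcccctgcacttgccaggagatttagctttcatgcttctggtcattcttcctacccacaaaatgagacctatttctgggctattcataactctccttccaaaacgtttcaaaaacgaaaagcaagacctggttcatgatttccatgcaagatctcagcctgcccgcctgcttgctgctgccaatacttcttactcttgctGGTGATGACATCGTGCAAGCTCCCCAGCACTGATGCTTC
Of the 8 members, 6 had a RefSeq promoter window (250 bases before to 50 after the start), with more than 1 window for Scn2a and Scn8a. Searched on both strands, the CCAAT box (CCAAT) was in the windows of Scn1a, Gm13629 and Scn4b, and in 37.4% of all 32851 windows. The windows of Scn1a and Gm13629 overlap by 142 bases, and their match is the same site. The TATA box (TATAAA) was in 1 of the Scn2a windows only and in 13.6% of all windows. The GC box (GGGCGG) was in none of the members' windows and in 35.7% of all. These are letter matches in a fixed window and nothing more.

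Gm13629 differed more with age than any member given with 20 CPM or more. It was at 8.06, 16.2, 28.7 and 206 CPM in excitatory neurons and at 7.55, 12.8, 17.5 and 214 CPM in inhibitory neurons. The step from P8 to P21 was 7.19-fold (6.46 to 8.02) and 12.2-fold (10.5 to 14.2). Over the same step Scn1a, its neighbour at the start, was 1.39-fold and 1.72-fold higher, and Scn9a, which it overlaps, was lower. Without a stated strand, UMIs from the stretch shared by Gm13629 and Scn9a cannot be told apart with certainty. Gm13629 was past 2-fold higher at P21 in 23 of 23 neuron subtypes. In IN3 it was at 51.7 CPM at P21, against 96.96 to 326 CPM in the other 22. It was at most 8.61 CPM in astrocytes and 10.9 CPM in the oligodendrocyte lineage, and at 54.02 CPM in microglia at P21, on 6 UMIs.

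**Figure D4:**
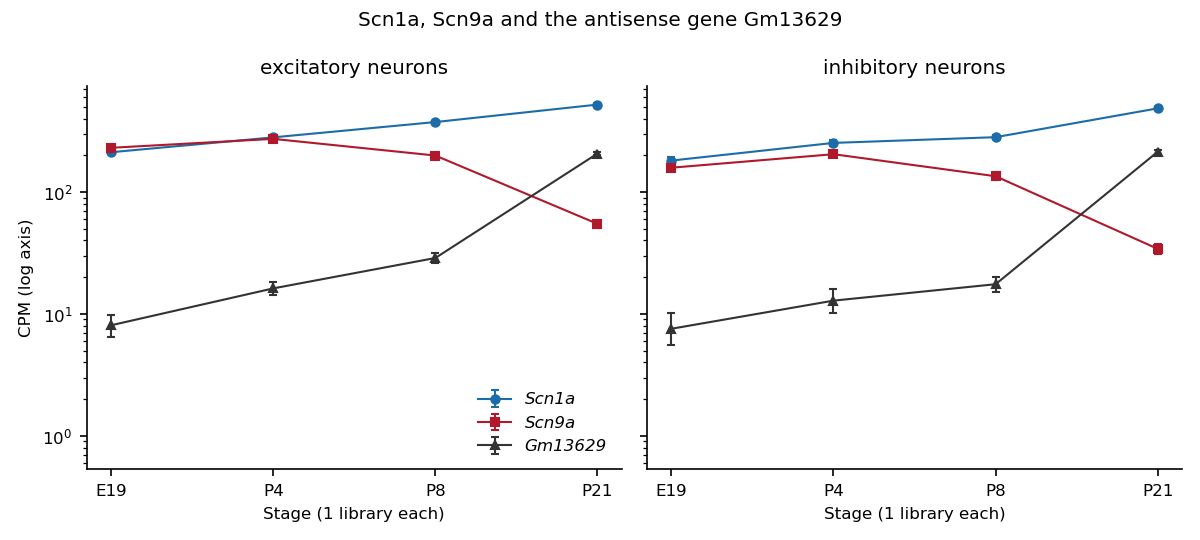
Levels of Scn1a (blue circles), Scn9a (red squares) and Gm13629 (black triangles) by stage in CPM on a log axis, in excitatory (left) and inhibitory neurons (right); bars are 95% counting intervals. In excitatory neurons Gm13629 is at 28.7 CPM at P8 and 206 CPM at P21, and Scn9a at 199 and 54.8 CPM, on scales not corrected for gene span.

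All 7 members that passed the filter on low counts were higher in neurons than in astrocytes, by the same edgeR test on the 4 library pairs. Of 14787 genes, 23.1% were called in that direction. The difference was largest for Scn9a, 14.7-fold (log2 3.88, SE 0.19, adjusted p = 1.3e-05), and Scn1a, 13.3-fold (log2 3.73, SE 0.18, adjusted p = 1.19e-05). It was smallest for Scn8a, 2.57-fold (log2 1.36, SE 0.14, adjusted p = 0.000246). Astrocytes were at 118, 144, 168.5 and 139.6 CPM of Scn8a, and vascular leptomeningeal cells of the same libraries at 13.6, 18.3, 27.01 and 27.2 CPM. From E19 to P21 in astrocytes 1 member was past 2-fold higher (Scn2b, on 2 and 33 UMIs) and 2 lower (Scn3a and Scn3b), beside 8.6% and 18.2% of genes. Scn2b in astrocytes reached 20.3 CPM at P21, beside 18.5 CPM in leptomeningeal cells, and their intervals overlapped.

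In the oligodendrocyte lineage, Scn8a was kept where the other alpha genes were low. At P21 oligodendrocyte precursors (64 nuclei) were at 207 CPM of Scn1a, 177 of Scn2a, 230.4 of Scn3a and 284 of Scn8a. Myelinating oligodendrocytes (187 nuclei) were at 20.4, 54.9, 17.2 and 303 CPM. Precursors thus had 10.1-fold more Scn1a (6.52 to 16.1), 3.23-fold more Scn2a (2.25 to 4.59) and 13.4-fold more Scn3a (8.46 to 21.7). For Scn8a the ratio was 0.937 (0.735 to 1.18). Committed oligodendrocytes (55 nuclei), between the 2 in the authors' naming, were at 39.1, 49.4 and 51.5 CPM of Scn1a, Scn2a and Scn3a and at 393 CPM of Scn8a. Vascular leptomeningeal cells were at 39.2, 61.04, 21.8 and 27.2 CPM at P21, so that Scn1a, Scn2a and Scn3a in myelinating oligodendrocytes had intervals overlapping that level, while Scn8a lay above it.

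Within precursors the alpha genes Scn1a, Scn2a, Scn3a and Scn8a did not differ between E19 and P21 beyond counting error. Scn1a was at 147 CPM at E19 and 207 at P21 (ratio 1.41, 0.888 to 2.29), and Scn3a at 241 and 230.4 CPM (0.955, 0.648 to 1.42). Scn3b was lower in them at P21, at 16.7 CPM on 5 UMIs against 62.95 CPM on 12 UMIs at E19, a ratio of 3.77 (1.24 to 13.7). Over the whole lineage Scn1a was at 142 CPM at E19 and 48.03 CPM at P21, and Scn3a at 234 and 51.4 CPM. Of the lineage's nuclei, 46 of 47 were precursors at E19 and 64 of 306 at P21. Scn9a, at 25.4 CPM over the lineage at E19, had 2 UMIs at P21.

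**Figure D5:**
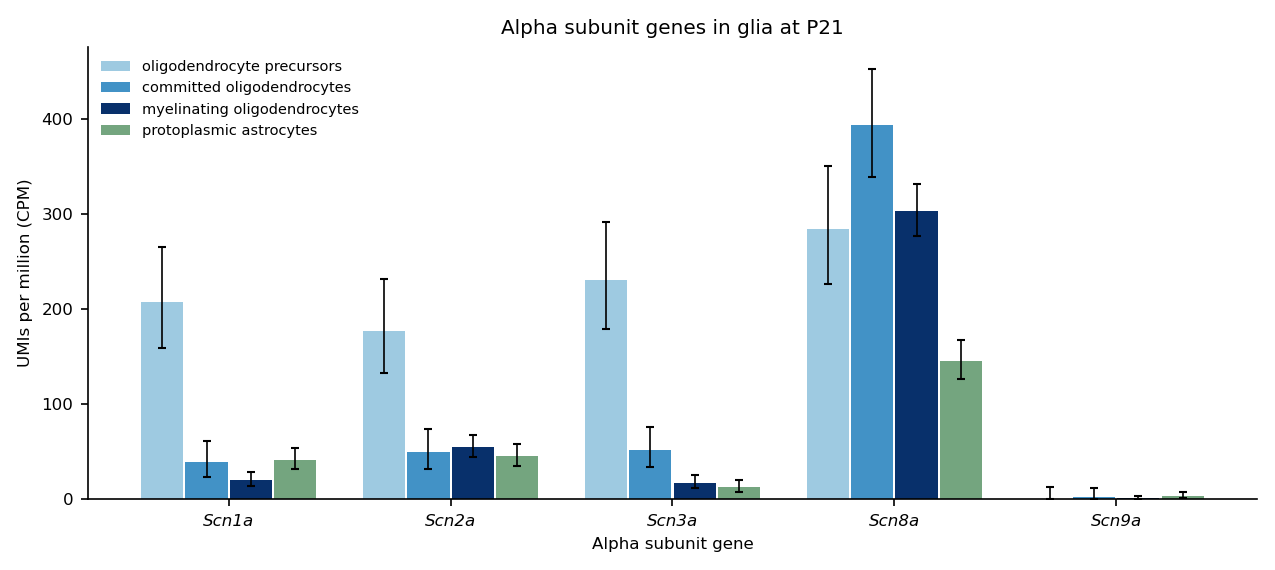
Levels of the 5 alpha subunit genes (CPM, bars from 0) at P21 in oligodendrocyte precursors, committed and myelinating oligodendrocytes and protoplasmic astrocytes; lines are 95% counting intervals. Scn8a is at 284, 393 and 303 CPM in the 3 oligodendrocyte stages, while Scn1a is at 207, 39.1 and 20.4 CPM.

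The remaining classes held few nuclei, 10 to 40 per library. Endothelial cells, with 12 to 22 nuclei, had at most 17 UMIs of any member in a library. Dividing cells had Scn8a at 151 to 243 CPM, on 12 to 56 UMIs, and Scn1a at 349 CPM at P21, on 21 UMIs from 10 nuclei. In microglia Scn1a was at 144 CPM at P21, on 16 UMIs (82.3 to 234), and at 0 to 65.9 CPM before. Summed neuron markers in microglia at P21 were at 3529 CPM and those of myelinating oligodendrocytes at 1413.5 CPM, the highest values of the 4 stages, and their part was not tested.

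The shares of excitatory nuclei with a UMI of Scn1a and of Scn9a differed between E19 and P21 in the direction of the levels. After thinning to 2300 UMIs, Scn1a was found in 36.1% of excitatory nuclei at E19 (33.5 to 38.7) and 69.4% at P21 (65.7 to 72.8), against 70.9% and 99.4% unthinned. In vascular leptomeningeal nuclei the thinned shares were 0 of 36 nuclei, which allows up to 9.74%, and 9.35%. Scn9a went from 37% to 10.4% of excitatory nuclei, against 0% of leptomeningeal nuclei at both stages, where 0 of 139 nuclei at P21 allows a share of up to 2.62% (exact interval). No nucleus was shallower than the thinning depth.

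Other genes around the channels were described by lists. Of 25 genes of the axon initial segment and node, 6 were past 2-fold higher and 2 lower at P21 in excitatory neurons, beside 5.35% and 10.7% of all genes, with a median log2 ratio of 0.17 against -0.06 over all genes tested. In inhibitory neurons the counts were 5 and 2, beside 5.83% and 11.3%, and the medians 0.09 and -0.04. The potassium channel genes Kcna1 (6.68 to 71.8 CPM) and Kcna2 (14.8 to 69.3 CPM), found beside nodes, and the paranodal gene Cntnap1 (20.2 to 59.4 CPM) were among those higher in excitatory neurons from E19 to P21. The adhesion molecule gene L1cam (142 to 47.9 CPM) and Trim46 (119 to 55.7 CPM), which organises axonal microtubules, were the 2 lower. The scaffold gene Ank3, which anchors sodium channels at the initial segment, was at 2671 and 1716 CPM and did not pass 2-fold. In the class test 11 of 25 were called higher in excitatory neurons, beside 9.48% of all genes, and 0 in inhibitory neurons, beside 7.72%.

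Of 20 genes for modulators of sodium channels and sodium handling, 16 reached 20 CPM, and 1 was past 2-fold higher in excitatory neurons, Camk2a (104 to 318 CPM), beside 5.35% of all genes. In inhibitory neurons Camk2a was higher (88.9 to 291 CPM) and Fgf13, whose product binds the channel's C-terminus, lower (464 to 134 CPM). In excitatory neurons Fgf13 was at 485 and 391 CPM. The median log2 ratio of the list was -0.18 and -0.14 in the 2 classes. The class test called 4 of 20 higher in excitatory and 2 in inhibitory neurons, beside the same 9.48% and 7.72%.

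Patterns over 96 sums of neuron subtype and stage are given as descriptions, since subtypes of a stage share a library. Among members, Pearson's r of log2 levels was 0.83 between Scn1a and Scn8a and -0.78 between Scn2b and Scn3b. With the stage mean removed it was 0.57 and -0.03. Scn2a and Scn9a went from 0.41 to 0.75 when the stage mean was removed. The gene most like Scn1a among 7081 compared was Ppargc1b (r = 0.89), most like Scn3a was Ablim3 (0.83), like Scn8a Tango2 (0.84) and like Scn9a Pfkp (0.84). For the beta genes they were Upp2 (0.80) for Scn2b, Nnat (0.93) for Scn3b and Sgpp2 (0.80) for Scn4b, where the values with the stage mean removed were 0.20, 0.22 and 0.33.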

How the data were processed

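The authors deposited 1 matrix of UMI counts per gene for nuclei of all libraries, not normalised, and a table with each nucleus's stage, class and subtype. Per the labels, nuclei were passed through a sucrose cushion, captured with 10x Genomics 3′ v3 chemistry and counted with Cell Ranger 3.0.2 on an mm10 pre-mRNA reference, which counts intronic reads and so gives long genes more UMIs. The filters on nuclei, the handling of doublets and the naming of classes are not given in the sources used here. Recomputed totals equalled the deposited ones in all 9724 nuclei.

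UMIs were summed per library and class or subtype and scaled to CPM. Intervals were exact Poisson (levels), Clopper-Pearson (shares) and conditional binomial (folds), all at 95% and for counting error only. No test was made between stages, which had 1 library each. Classes were compared with edgeR 4.0.16 in R 4.3.3 (quasi-likelihood, TMM, filterByExpr, library as a block, Benjamini-Hochberg over all genes tested, called at 0.05), with DESeq2 1.42.0 as an alternative. P-values measure the spread over 4 library pairs of different age. Scripts were tested on simulated data. For neurons against astrocytes too few simulated 2-fold changes were recovered, and the pass mark was then moved to 4-fold changes. Genes were matched to GENCODE M21 by identifier (31011 of 31053). Members, lists and comparisons were chosen with earlier results of these data known. The genes named were all members, Gm13629, at most 4 genes per list and direction past 2-fold, and the closest gene by correlation. Some results that fall under this rule are not reported here. EN12, IN3, Ank3, Fgf13 in excitatory neurons, Gm10684 and Scn1a in microglia are named outside that rule, chosen with their values known.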

Additional observations from a re-analysis of the deposited data

Results flagged for a closer look

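Between E19 and P21 the classes of nuclei did not all move 1 way. Scn1a was higher at P21 in excitatory neurons (log2 ratio 1.28), inhibitory neurons (1.4) and astrocytes (0.78), and lower in the oligodendrocyte lineage (-1.48), where the share of precursors was lower at P21. Astrocytes were at 44.3 CPM of Scn1a at P21, beside 39.2 CPM in vascular leptomeningeal cells, which were at 4.55 CPM at E19. Scn2a was slightly higher in excitatory (0.12) and inhibitory neurons (0.14) and lower in astrocytes (-0.75) and the oligodendrocyte lineage (-0.83). Scn3a was higher at P21 in subtype EN12 (0.44) and lower in the other 22 neuron subtypes. The counting intervals of these ratios excluded 1, except in 2 of the 22 subtypes. With 1 library per stage, the difference between classes or subtypes in their change was not tested.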

How the results depend on the processing

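Of 622 values computed under other settings, none reversed a called direction. Of the counts of members and genes, 116 stayed within 1.5 times the reported count and 22 moved. Of the other values, 343 stayed the same, 127 moved, 11 were weaker and 3 stronger. Between excitatory and inhibitory neurons, the 3 members called higher in excitatory neurons became 5 with no filter on low counts 1 to 3 when a library was left out, and 1 without subtype IN3, an alternative added after the data were seen. Without the library as a replicate block the counts were 0 members, 98 genes higher in excitatory and 85 higher in inhibitory neurons, against 1403 and 1142 with it. The block pairs both classes of 1 library, which come from the same pool of animals. Without it, Scn2b was also no longer called between neurons and astrocytes (adjusted p = 0.141). With nuclei thinned to 2300 UMIs the 2 counts of genes were 881 and 622, and DESeq2 called 627 higher in inhibitory neurons. Leaving out a library gave 757 to 1285 and 475 to 1043. Scn3a was called with no filter (adjusted p = 0.0186), and Scn8a with classes set by transmitter UMIs (0.0473) or without subtype EN7 (0.032).

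For members past 2-fold from E19 to P21, a pseudocount of 20 CPM left 1 higher in inhibitory neurons and 0 in astrocytes, and 1 CPM gave 2 in astrocytes. Mean UMIs per nucleus, not scaled and added after the data were seen, gave 5 higher and 0 lower in excitatory neurons, 5 and 1 in inhibitory neurons, and 2 higher in astrocytes. With nothing added before the ratio, that scale adds the shift in depth to each log2 ratio, by construction. Scn3b in excitatory and Scn9a in inhibitory neurons were then past 2-fold lower on it. Of 216 member values under alternatives, 1 had the other sign, Scn3a in excitatory neurons on that scale (0.82). Depth limits Scn4b before P21, the glial classes at E19 and P4, and the order of subtypes. With 1 library per stage, animal, sex and library differences cannot be told apart from age.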
